A study of Rattus norvegicus with 12 samples.

Results

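Transcripts of the circadian clock were followed in the injured spinal cord of T cell-deficient and immunocompetent rats. The set was chosen on the strain differences of these same expression tables, seen in earlier work on them, so its values are described here and carry no test. It named 10 genes, of which 6 were found among the 17423 genes listed: Dbp, Tef, Per3, Ciart, Bmal1 and Npas2. The other 4 (Per1, Per2, Nr1d1 and Nr1d2) could not be matched to a Rat Genome Database (RGD) identifier and were not analysed here.

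The study compared athymic nude rats (AN, Hsd:RH-rnu/rnu), which lack a working thymus and have few mature T cells, with Sprague-Dawley rats (SD, Hsd:SD), which are immunocompetent. All were females that received, at an age of 16 to 18 weeks, a moderate contusion of the spinal cord at a force of 200 kdyn, and no uninjured group was analysed here. RNA came from a 1 mm segment through the injury, at 1 week (acute phase) or 8 weeks (chronic phase), from 3 rats in each of the 4 groups of strain and phase. Rats of the chronic phase were thus older at collection, so age and time after injury cannot be told apart between phases. SD and AN are separate stocks, so the strain contrast covers every genetic difference between them and not T cells alone. The sources used here do not give the hour of day at which tissue was collected in any group.

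The mammalian clock is a feedback loop of transcription that runs in nearly every tissue, the spinal cord included. The activators BMAL1 and CLOCK, or NPAS2 in place of CLOCK, bind as a pair to E-boxes and switch on the Per and Cry genes, Ciart, the Nr1d genes and the outputs Dbp and Tef. The PER, CRY and CIART proteins then repress that pair, while NR1D proteins hold back Bmal1 and Npas2 through the ROR response element (RORE). Transcripts of Dbp, Tef, Per3 and Ciart therefore peak at a time of day when those of Bmal1 and Npas2 are low. A pooled level in tissue taken once does not show a rhythm.

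The promoters of the members carried the elements of that loop in part. RefSeq windows of 300 bases (250 before and 50 after the annotated start, GRCr8) were available for all 6 genes, 1 window each. The E-box CACGTG was found 3 times for Ciart and once for Tef, against 6.42% of all 33469 rat windows with at least 1. The full RORE was found once, for Bmal1, a motif held by 0.176% of windows. Its core TAGGTCA, which lies inside it, was held by 2.63%. No window of the 6 held the E-box variant CACGTT (4.83% of all windows) or the D-boxes TTATGTAA and TTACGTAA (1.01%), to which the DBP and TEF proteins bind. Dbp, Per3 and Npas2 held none of these letters in the window. Both strands were searched, and a match is a description of the sequence and not a bound site. The 3 promoters with a match are shown for their sequence alone. The 250 bases before the start are printed 5′ to 3′ on the gene's strand, with the matches in capitals, for Ciart (chr2:186112247-186112496, minus strand), Tef (chr7:115206577-115206826, plus strand) and Bmal1 (chr1:176766078-176766327, plus strand).
Ciart: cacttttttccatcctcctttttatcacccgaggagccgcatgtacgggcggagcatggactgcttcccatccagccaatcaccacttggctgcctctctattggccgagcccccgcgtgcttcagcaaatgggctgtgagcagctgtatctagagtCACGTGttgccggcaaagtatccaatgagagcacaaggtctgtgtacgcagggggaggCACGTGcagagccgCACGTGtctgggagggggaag
Tef: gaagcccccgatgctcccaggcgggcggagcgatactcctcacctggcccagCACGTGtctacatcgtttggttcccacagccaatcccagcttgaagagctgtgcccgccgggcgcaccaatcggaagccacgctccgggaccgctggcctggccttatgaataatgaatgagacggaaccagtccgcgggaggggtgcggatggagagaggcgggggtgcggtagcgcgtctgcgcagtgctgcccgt
Bmal1: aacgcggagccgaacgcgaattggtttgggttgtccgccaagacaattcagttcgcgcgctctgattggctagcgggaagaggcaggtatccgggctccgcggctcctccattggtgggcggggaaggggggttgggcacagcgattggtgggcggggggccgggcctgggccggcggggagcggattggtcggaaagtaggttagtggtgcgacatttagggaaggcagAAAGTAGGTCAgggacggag
In Ciart the E-boxes began 93, 35 and 21 bases before the start, in Tef the E-box began 198 bases before it, and in Bmal1 the RORE began 20 bases before it.

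FPKM is a fragment count scaled to transcript length and sequencing depth, and the study reports quartile normalization in its Cufflinks step. The expression files hold 1 FPKM for each group of 3 rats, as the authors' value, and no value per rat. The spread between rats could therefore not be computed here, and the differences below carry no error and no test. The tables also hold the authors' own P and Q values for the strain differences, which were left out by choice. Reads were counted by the study for each rat, but the number of fragments behind the value of a gene is not in the tables. Differences are given as log2FC, log2(AN FPKM / SD FPKM). A gene was compared in a phase where neither group fell below an FPKM of 1, and a difference of at least 1.5-fold was counted as past the threshold. This is a size and not a test.

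Dbp and Tef encode PAR bZIP transcription factors through which the clock drives other genes. At 1 week the FPKM of Dbp (RN4 chromosome 1, 96173573 to 96178485) was 68.0 in SD rats against 26.6 in AN rats, and at 8 weeks it was 56.0 against 155. The lowest and the highest of these levels were both those of AN rats, with the SD levels between them. The log2FC was -1.35 in the acute phase, where AN rats had 39.1% of the SD level, and 1.47 in the chronic phase, where they had 2.78 times it. Dbp is short and lies 129 and 638 bases from its neighbours without overlap. The closer neighbour stayed between 36.6 and 38.6 FPKM over the 4 groups. The other had log2FC of -0.99 and -0.26, so it was lower in AN rats in both phases.

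Tef (chromosome 7, 120164881 to 120179984) stood at 40.7 FPKM in SD and 21.9 in AN rats at 1 week, then at 37.4 and 64.2 at 8 weeks. The levels stood in the same order as those of Dbp over a narrower range. Its acute log2FC was -0.90 and its chronic log2FC 0.78, and neither reached a 2-fold difference.

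Per3 and Ciart act on the repressing side of the loop. Per3 (chromosome 5, 168152693 to 168187442), a period gene whose product joins the complex of PER and CRY proteins, had an FPKM of 16.7 (SD) and 7.64 (AN) at 1 week and of 10.8 (SD) and 29.4 (AN) at 8 weeks. The log2FC was -1.12 in the acute phase, or 45.9% of the SD level, and 1.44 in the chronic phase, or 2.71 times it. AN rats again held the lowest and the highest level.

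Ciart (chromosome 2, 190659555 to 190663895) encodes a repressor that binds the BMAL1 complex. SD rats had an FPKM of 9.76 and AN rats 3.06 at 1 week, followed at 8 weeks by 11.9 and 21.1. The acute log2FC of -1.67 was the lowest among the members, with AN rats at 31.3% of the SD level, and the chronic log2FC was 0.83. Ciart had the widest range of the 6 genes, 6.92-fold between acute and chronic AN rats.

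Of the activators, Bmal1 was higher in acute and lower in chronic AN rats, and Npas2 was lower in chronic AN rats. Bmal1 (chromosome 1, 171062181 to 171162426), without which the clock does not run, was at an FPKM of 10.7 (SD) and 16.3 (AN) at 1 week and of 23.4 (SD) and 9.03 (AN) at 8 weeks. Here chronic AN rats were lowest and chronic SD rats highest. The acute log2FC of 0.60 lay just past the 1.5-fold threshold, whose log2 is 0.585, and did not pass it once the ratios were centred on the median of all genes, scaled by the 75th percentile of FPKM or given a pseudocount of 1. The chronic log2FC was -1.37, with AN rats at 38.6% of the SD level.

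Npas2 (chromosome 9, 38255362 to 38434352) encodes the partner that can stand in for CLOCK. The 1 week FPKM was 4.86 for SD and 4.84 for AN rats, and the 8 week FPKM was 12.6 and 4.14. The 2 acute levels were nearly the same (log2FC -0.01), and the chronic log2FC of -1.61 was the lowest among the members. Npas2 thus differed in the chronic phase alone by the 1.5-fold threshold, and its 3 lower levels lay between 4.14 and 4.86.

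**Figure D1:**
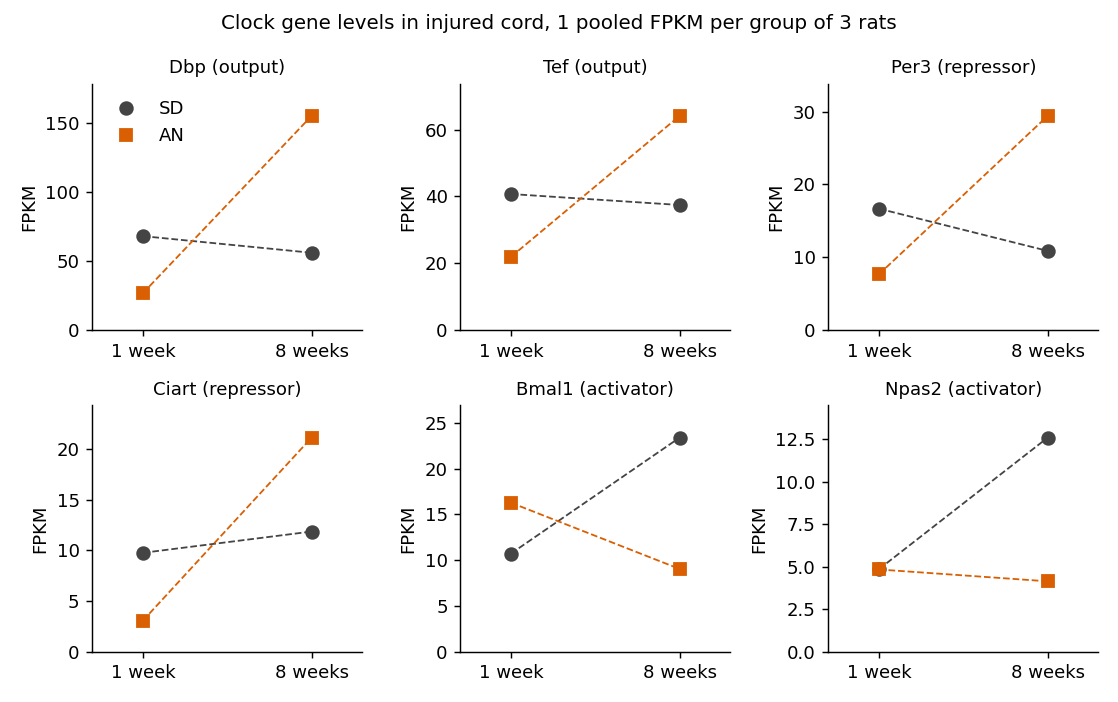
FPKM (vertical axes, from 0) of the 6 clock genes at 1 and 8 weeks, with 1 point per group of 3 rats (circles SD, squares AN). Dashed lines only link the points of a strain, and the 2 phases were normalized separately. For Dbp, Tef, Per3 and Ciart the AN square lies below the SD circle at 1 week and above it at 8 weeks, while Bmal1 does the reverse and the Npas2 points meet at 1 week.

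Counted over the members, 4 of 6 were at least 1.5-fold lower in AN rats in the acute phase (Dbp, Tef, Per3 and Ciart), as were 13.9% of the 10594 genes compared. Bmal1 alone was higher, with 7.17% of all genes. In the chronic phase the same 4 were higher in AN rats, with 5.56% of 10843 genes, and Bmal1 and Npas2 were lower, with 7.95%. The median log2FC of the 6 members was -1.01 at 1 week and 0.81 at 8 weeks, against 0.02 and 0.01 over all genes. The median mixes genes of opposite roles, and over Dbp, Tef, Per3 and Ciart it was -1.24 and 1.14. These differences had a part in choosing the set, so nothing is read from the distance to the background.

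Few genes of the tables changed sides between the phases. Of 10381 genes that met the FPKM minimum in both phases, 40 (0.385%) were at least 1.5-fold lower in acute and higher in chronic AN rats, and 4 of these were members. The reverse held for 19 genes (0.183%), Bmal1 among them. In the order of the chronic minus the acute log2FC, Dbp (2.83) had rank 11, Per3 (2.56) rank 15, Ciart (2.51) rank 17 and Tef (1.67) rank 72 from the top. Bmal1 (-1.98) had rank 8 and Npas2 (-1.60) rank 23 from the bottom.

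With a 2-fold threshold, Dbp, Per3 and Ciart were lower in acute AN rats (7.41% of all genes), no member was higher (1.63%), Dbp and Per3 were higher in chronic AN rats (1.73%), and Bmal1 and Npas2 were lower (3.97%). Dbp and Per3 were then 2 of the 10 genes that were lower and later higher (0.0963%), and no member was among the 2 genes with the reverse (0.0193%).

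**Figure D2:**
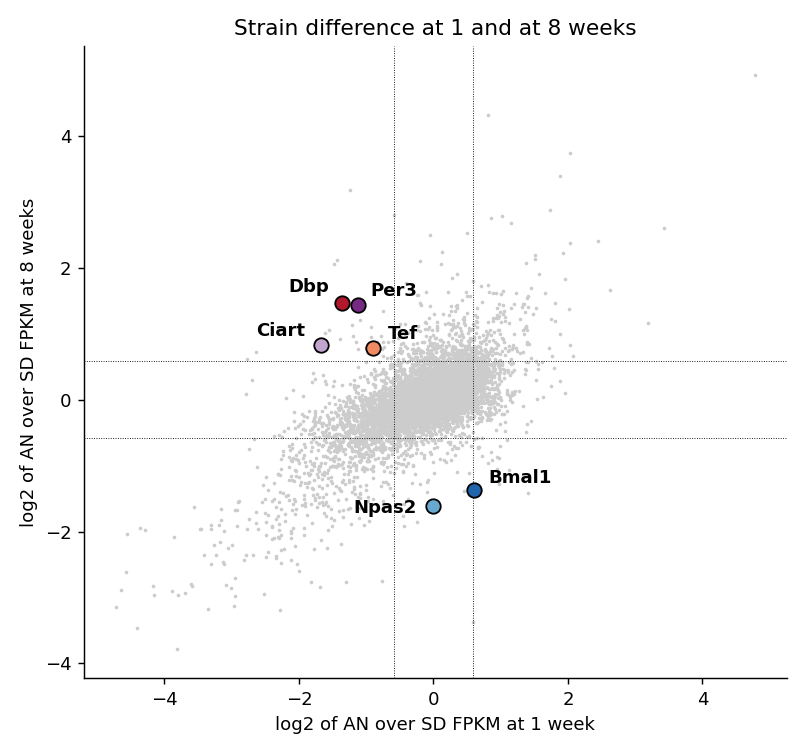
Log2 ratio of AN to SD FPKM at 1 week (horizontal axis) and at 8 weeks (vertical axis) for 10381 genes (grey) and the 6 clock genes (coloured). Dotted lines mark 1.5-fold. Dbp, Per3, Ciart and Tef lie in the upper left corner, Bmal1 lies just inside the lower right corner and Npas2 lies below 0 on the vertical axis alone.

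The question of which strain changed with time was addressed within each strain. The phases were normalized separately, so levels set across them are a description, and the median log2 change from 1 to 8 weeks over all genes was within 0.1 of 0 in both strains (0.01 in AN rats). In AN rats, Dbp was 5.84 times, Ciart 6.92 times, Per3 3.85 times and Tef 2.93 times as high at 8 weeks as at 1 week. In SD rats the corresponding log2 changes were -0.28, 0.28, -0.62 and -0.12. The outputs and repressors therefore differed with time mainly in AN rats, 4 of 4 by at least 1.5-fold (18.5% of all genes), whereas in SD rats only Per3 passed that size, and it was lower at 8 weeks (7.76%).

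The activators were higher at 8 weeks in SD rats and not in AN rats. Bmal1 was 2.18 times and Npas2 2.60 times as high at 8 weeks as at 1 week in SD rats, where 7.14% of all genes were at least 1.5-fold higher. In AN rats the log2 change was -0.85 for Bmal1, past the threshold with 12.2% of all genes, and -0.22 for Npas2. Over the 4 groups, acute AN rats were lowest and chronic AN rats highest for Dbp, Tef, Per3 and Ciart, an order seen in 11.6% of all genes. Chronic AN rats were lowest and chronic SD rats highest for Bmal1 and Npas2, as in 3.02% of all genes. Whether neighbouring levels in these orders differ beyond the spread between rats is not known.

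A ratio of 2 genes within a group does not depend on how that group was scaled, and FPKM is per length. The ratio of Dbp to Bmal1 at 1 week was 6.35 in SD and 1.63 in AN rats, and at 8 weeks it was 2.39 and 17.2. This ratio was thus higher in SD rats in the acute phase and in AN rats in the chronic phase. The ratio of Ciart to Bmal1 had the widest range, from 0.188 in acute AN to 2.34 in chronic AN rats, or 12.5-fold.

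All 8 ratios of an output or repressor to an activator were highest in chronic AN rats and next highest in acute SD rats. The first of these restates the orders above, since chronic AN rats were highest for each numerator and lowest for each denominator. The place of acute SD rats follows likewise for Dbp, Tef and Per3 over Bmal1, with next highest numerators and the next lowest denominator. The ratios share 6 genes, chosen on these same differences, so neither place is a separate result. In 4 of the 8 ratios acute AN rats were lowest, and in the other 4 chronic SD rats were. The ratio of Per3 to Bmal1 was almost the same in these 2 groups, 0.469 and 0.463. Among members of like role, the ratio of Dbp to Tef ranged from 1.22 to 2.42 and that of Bmal1 to Npas2 from 1.86 to 3.36, narrower than any ratio between roles. Per3 to Ciart ranged from 0.915 in chronic SD to 2.50 in acute AN rats.

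**Figure D3:**
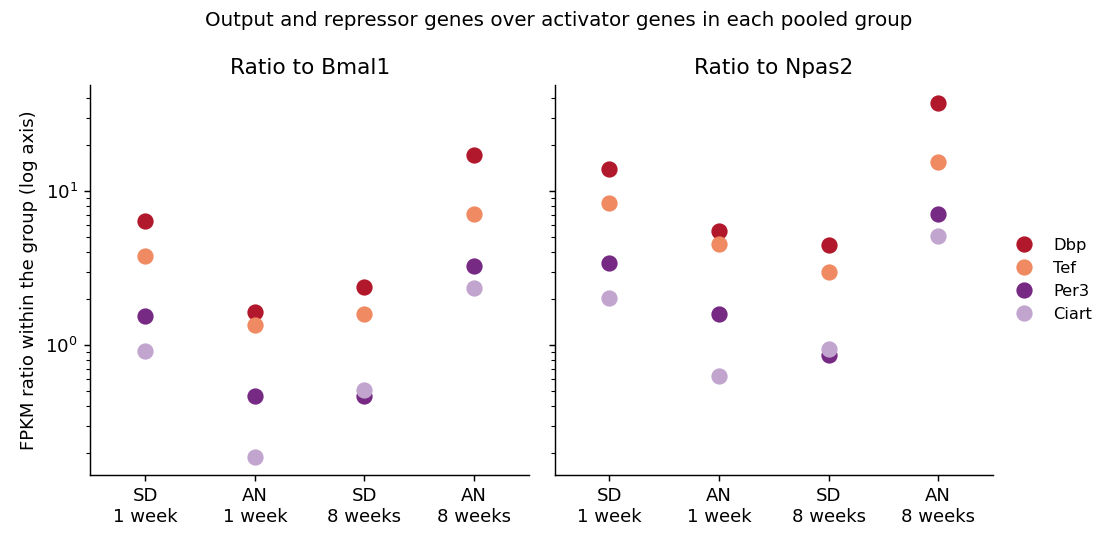
FPKM ratio of Dbp, Tef, Per3 and Ciart to Bmal1 (left) and to Npas2 (right) in each group, on a shared log axis, with 1 point per pooled group. In both panels every ratio is highest in AN rats at 8 weeks and second in SD rats at 1 week, and the Dbp ratio to Bmal1 spans 1.63 to 17.2.

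Other genes of the clock were taken from a list of 20, of which only 2 could be matched to identifiers. Clock and Cry1 were not among them. Cry2, a cryptochrome that represses the activators, had 20.3 (SD) and 12.9 (AN) FPKM at 1 week and 20.4 and 23.3 at 8 weeks, with log2FC of -0.65 and 0.19. Its direction followed that of the repressors above, without a 1.5-fold difference in the chronic phase. Rorb, a receptor that acts through the RORE, had 3.65, 1.61, 5.68 and 4.15 FPKM in the same order and was lower in AN rats in both phases (log2FC -1.18 and -0.45). Both were past the 1.5-fold threshold in the acute phase and neither in the chronic phase.

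These 2 genes carry a bias, since both were named through the supplementary gene table of the study. The copy used here is shortened and names 1985 of the listed genes, so a gene left unmatched here may still be among those measured. Of those named, 1458 were compared in the acute phase and 97.5% of them were past 1.5-fold. Of the genes named through RGD synonyms 7.21% were, and of those without a symbol 9.26%. In the chronic phase the shares were 46.5%, 5.28% and 8.18%. The count of any list named in this way is therefore no unbiased sample in either phase, and nearly all matched genes of the lists below were named in the same way.

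Of 19 genes listed for rhythmic output, 4 were found. Tfrc, the transferrin receptor, had log2FC of 0.72 and -0.57, Lgalsl (listed as hspc159) had -0.90 and -0.66, and Lonrf3 had 0.31 and 0.01. Vip, a neuropeptide that couples clock neurons, had 5.61 (SD) and 0.964 (AN) FPKM at 1 week and 3.22 and 0.456 at 8 weeks, below the minimum of 1 in AN rats each time. Of the 3 that met the minimum, none was at least 1.5-fold lower in acute and higher in chronic AN rats. Only 0.385% of all genes were, so nothing is read from this. Of 11 glucocorticoid-induced genes, a class that includes Per1, 3 others were found. Fkbp5 was higher in AN rats in both phases (log2FC 0.61 and 0.95), Mt2A was lower in both (-1.41 and -0.89), and Errfi1 had 0.50 and 0.32 without passing the threshold.

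The genes with log2FC closest to the medians of the 5 members that changed sides (-1.12 acute, 0.83 chronic) were Gjb2, Fmo1, LOC691764, Vipr2 and Cdh19. Likeness here is the distance between the pairs of log2FC over 10375 other genes, and it rests on 2 values for each gene. The medians take in Bmal1, which lay far from them on the opposite side, so the genes named are close to Dbp, Tef, Per3 and Ciart in direction and not to Bmal1. Gjb2, which encodes the gap junction protein connexin 26, had log2FC of -1.15 and 0.87, and its FPKM reached 148 in chronic AN rats. Vipr2, a receptor for the peptide of Vip, stood at 3.36 (SD) and 1.46 (AN) FPKM at 1 week and at 2.59 and 5.06 at 8 weeks, with log2FC of -1.20 and 0.97. The receptor thus changed sides while Vip was lower in AN rats at both times. Fmo1 had -1.12 and 0.76, LOC691764 had -1.01 and 0.78, and Cdh19, a cadherin of glial cells of the nerve, had -0.98 and 0.70. All 5 were named through the supplementary table.

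Marker genes of cell types also differed between groups, and all of those matched were named through the shortened table. In bulk tissue, fewer cells of a type and less RNA per cell cannot be told apart. All 11 of 13 neuron markers that were found were lower in AN rats in both phases. Their FPKM summed to 1609 in SD against 279 in AN rats at 1 week and to 1500 against 460 at 8 weeks, and their median log2FC was -2.37 and -1.83. At 1 week the widest differences were those of Snap25 (-4.72 and -3.14), a protein of vesicle release, Nefl (-4.56 and -2.04) and Nefm (-4.37 and -1.95), neurofilament subunits, Syp (-3.60 and -2.79) and Stmn2 (-3.16 and -1.83). How these markers relate to the differences of Dbp was not tested.

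The 5 oligodendrocyte markers found, of 8, had a median log2FC of -0.94 and then -0.39. Mog (-1.44 acute), Mag (-1.27), Olig1 (-0.94), Cnp (-0.88) and Olig2 (-0.68) were all past the threshold at 1 week and none was at 8 weeks. The 2 astrocyte markers found, of 6, were S100b (-1.77 and -0.50) and Slc1a2 (-1.69 and -0.27). The macrophage markers Itgam, Cd14 and Cx3cr1 had acute log2FC of 1.12, 1.17 and 0.61, while Lyz2 had -4.19. The 3 markers that met the FPKM minimum at 8 weeks, without Lyz2, had a median of -0.03. Lyz2 then had 13.2 (SD) and 0.546 (AN) FPKM, so it was again lower in AN rats but below the minimum there. Of 4 T cell markers, 2 were found, Cd4 with log2FC of -1.20 and -0.25 and Cd3g with -2.37 and -0.88. The acute AN level of Cd3g was below an FPKM of 1. No endothelial or fibroblast marker of the lists could be matched.

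The red cell markers changed sides between the phases. Hba-a2 and 2 listed copies of Hbb were lower in acute and higher in chronic AN rats, with a median log2FC of -2.22 and 1.10. Together they had 743 FPKM in SD and 248 in AN rats at 1 week, then 269 and 1039 at 8 weeks, and reads can be shared between globin copies. The part of these markers, and of the neuron and glial markers, in the differences of the clock genes was not tested.

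**Figure D4:**
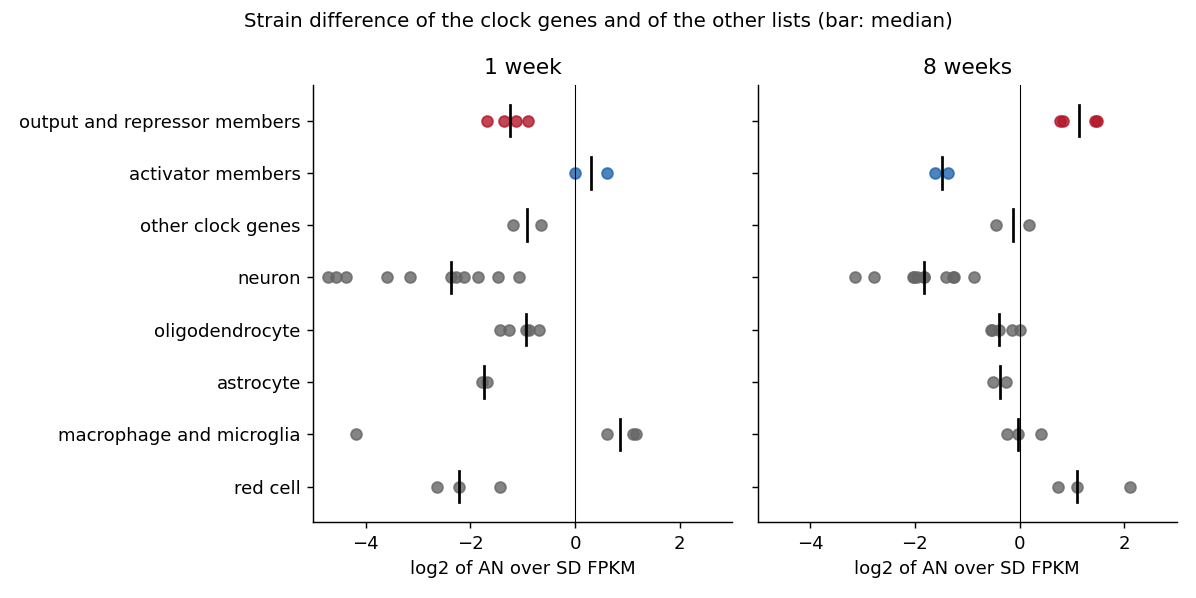
Log2 ratio of AN to SD FPKM at 1 week (left) and 8 weeks (right) for the clock genes by role and for the matched genes of the other lists, 1 point per gene that met the FPKM minimum, with bars at the medians. The medians of Dbp, Tef, Per3 and Ciart were -1.24 and 1.14, those of the neuron markers -2.37 and -1.83, and the red cell markers crossed 0 from -2.22 to 1.10.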

How the data were processed

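RNA-seq of injured cord from 12 rats was analysed. The authors trimmed reads with CutAdapt, mapped them to RN4 with TopHat (version 1.5.0), assembled transcripts with Cufflinks (version 0.0.6) using quartile normalization, merged them per time point with CuffMerge and compared strains with CuffDiff. The versions are those in the submitters' processing notes. The deposited FPKM is 1 value per group of 3 rats, in 1 table per phase, with no value per rat on which a test could be rerun. The authors' own fold changes, test statistics, P and Q values and status are in these tables and were left out by choice. The fragment count per gene is not in the tables.

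Strain and phase came from the labels. The log2 ratio of AN over SD had no pseudocount and needed FPKM values of 1 or more for both strains. Identifiers were named by the rule for the set, the supplementary gene table (1985) or RGD synonyms in the GRCr8 gene table (2725), and none by gene order. Starts are counted from 1. Members, lists, threshold and naming rule were chosen with earlier results of these data known. The naming rule took every member, list genes past the threshold (at most 5 per list, by size), Clock, Cry1, Cry2 and the 5 genes most alike. Vip, Lonrf3, Errfi1 and the neighbours of Dbp fall outside it and were picked after their values were seen. 1 marker list is not reported here. Counting of reversed genes was tested on simulated data. Motif finding was tested only on a short made-up sequence with an E-box, and the other motifs were not tested. Python 3.11.15, numpy 2.4.6 and pandas 2.3.3 were used.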

Additional observations from a re-analysis of the deposited data

Results flagged for a closer look

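The strain difference of 5 clock genes had opposite directions in the phases, each by at least 1.5-fold. Over all genes, 0.385% were lower and later higher in AN rats and 0.183% were the reverse, and the set was chosen on such differences. The chronic minus the acute log2 ratio of AN over SD was 2.83 for Dbp, 2.56 for Per3, 2.51 for Ciart, 1.67 for Tef and -1.98 for Bmal1. Each rests on 1 pooled value per group, so it is not known whether every rat followed its group, and the difference was not tested. The acute side of Bmal1 was 1.52-fold, close to the threshold, and did not pass it with a pseudocount of 1, after centring or after scaling.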

How the results depend on the processing

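The limits are those of pooled values: without values per rat, no replicate could be left out and no paired fit made. A low FPKM such as that of Npas2 or acute Ciart has an unknown precision. Settings tried were an FPKM minimum of 0.1 or 5, a pseudocount of 0.1 or 1, a 2-fold threshold, centring on the median of all genes and scaling by the 75th percentile.

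The count of members higher in acute AN rats, and with it the count higher and later lower, went from 1 to 0 with a pseudocount of 1, at 2-fold, after centring and after scaling, each time because Bmal1 no longer passed. With a minimum of 5, Npas2 at both times and acute Ciart were not compared, and 1 member in place of 2 was lower in chronic AN rats, 3 in place of 4 were lower in acute AN rats and 3 in place of 4 were lower and later higher. At 2-fold, 2 in place of 4 members were higher in chronic AN rats, and 2 were lower and later higher. Of the other clock genes, 1 in place of 2 was past the threshold in the acute phase at 2-fold and with a minimum of 5. The median log2FC of the members lay between -1.04 and -0.95 in the acute and between 0.77 and 0.83 in the chronic phase under the settings that give one. Of 96 values of single members under the pseudocounts, centring and scaling, none past the threshold changed sign and 3 moved by 0.2 or more on the log2 scale, all with a pseudocount of 1.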

Other observations

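Some of the genes that were at least 1.5-fold lower in acute and higher in chronic AN rats had no tie to the clock lists. Of these 40 genes, 26 had a symbol, the 4 members included, and the following were picked after their values were seen. Igf2, a growth factor, had log2 ratios of AN over SD of -1.55 and 1.06, Gdf10 had -1.09 and 1.22, and Lamc3, a laminin chain, had -1.21 and 1.13. Scn7a, a sodium channel gene of glia, had -0.75 and 0.87, and Pou3f1, a transcription factor of myelinating Schwann cells, had -0.84 and 0.88. Among the 19 genes with the reverse order, 12 had a symbol. Apoc1, an apolipoprotein, had 0.97 and -1.28, and Kcnn4, a calcium-activated potassium channel gene, had 0.86 and -0.92.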
